A study of Homo sapiens with 2 samples.

Results

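Among the enzymes that release arachidonic acid and turn it into prostaglandins, 3 of the 7 examined genes had a higher share of tags in the shRNA-SOX2-labelled library and 4 had a lower share. The genes, with their Entrez Gene identifiers, were PLA2G4A (5321), PLA2G4C (8605), PTGS2 (5743), PTGES (9536), PTGES2 (80142), PTGES3 (10728) and PTGR1 (22949), and all 7 were found by symbol among the 13137 genes of the table. They were chosen from earlier results of this same contrast, so their values are given as a description and without a test. The phospholipases PLA2G4A and PLA2G4C and the reductase PTGR1 were on the higher side. The cyclooxygenase PTGS2 and the prostaglandin E synthases PTGES, PTGES2 and PTGES3 were on the lower side.

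The cells were A549, a line from a human lung adenocarcinoma, and they carried an H1TetO-shRNA-SOX2 or H1TetO-shRNA-Con construct, that is, a doxycycline-inducible hairpin against SOX2 or a scrambled control hairpin. Both polyclonal lines, made by lentiviral infection and puromycin selection, received doxycycline for 4 days, and poly(A) RNA taken from 4 µg of total RNA went into digital gene expression, which counts short sequence tags per gene. Each condition had 1 library, so no spread between cultures can be given, and every interval below is a 95% Clopper-Pearson interval that covers counting error only. The value columns carry the abbreviations SC and S1, and SC was taken for shRNA-Con, whose initials it has, which leaves S1 for shRNA-SOX2.

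Gene tags numbered 2093816 in the shRNA-SOX2-labelled library and 2304184 in shRNA-Con. SOX2, the targeted gene, had 16 shRNA-Con tags and 23 in the shRNA-SOX2-labelled library, a ratio of 1.58 (0.8 to 3.2). The interval includes 1 and has its lower end at 0.8. Within counting error, SOX2 mRNA was thus not lower than that in the shRNA-SOX2-labelled library relative to shRNA-Con. It gave no backing for the labels, and SOX2 protein was not analysed here. Of the epithelial markers, in shRNA-Con and the shRNA-SOX2-labelled library in turn, KRT8 had 7702 and 12729 tags, KRT18 had 10318 and 7887, KRT19 had 35 and 127, CDH1 had 50 in both and EPCAM had 8 and 4, so KRT8 and KRT19 were higher in the latter and KRT18 lower. Over the markers that could be counted, those of leukocytes summed to 4 and 11 tags, those of fibroblasts to 46 and 52, and that of endothelium to 3 and 0. The alveolar type II markers SFTPA1, SFTPB, SFTPC and NKX2-1 were not analysed here.

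Cytosolic phospholipase A2 cuts arachidonic acid from membrane phospholipids. The cyclooxygenases PTGS1 and PTGS2 oxidise it to prostaglandin H2, and terminal synthases convert that into prostaglandin E2, D2, F2 alpha, prostacyclin or thromboxane. Prostaglandins then act on surface receptors, and are inactivated inside cells by the dehydrogenase HPGD followed by reductases such as PTGR1. PTGS2 and PTGES are the inducible partners of this route and are known for their part in inflammation and in lung cancer.

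The 250 bases before the annotated start are shown for 3 genes, PTGS2 and PLA2G4A because they lie next to each other among the protein-coding genes of chromosome 1 and differed in opposite directions, and PTGES because it is the partner of PTGS2 and was on the same side. The sequences are those of RefSeq on GRCh38.p14, 5′ to 3′ on the gene's own strand, and the submitters' processing notes name another build, hg19, for the tags. The PTGS2 stretch is chr1:186680424-186680673 on the minus strand, that of PLA2G4A is chr1:186828699-186828948 on the plus strand, and that of PTGES is chr9:129753043-129753292 on the minus strand. Capitals mark the matches to 6 motifs searched on both strands.
PTGS2: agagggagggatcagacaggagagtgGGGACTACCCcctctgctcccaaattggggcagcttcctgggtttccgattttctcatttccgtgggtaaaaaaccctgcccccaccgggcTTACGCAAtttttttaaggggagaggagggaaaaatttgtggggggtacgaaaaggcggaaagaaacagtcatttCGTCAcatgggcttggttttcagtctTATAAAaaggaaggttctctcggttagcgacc
PLA2G4A: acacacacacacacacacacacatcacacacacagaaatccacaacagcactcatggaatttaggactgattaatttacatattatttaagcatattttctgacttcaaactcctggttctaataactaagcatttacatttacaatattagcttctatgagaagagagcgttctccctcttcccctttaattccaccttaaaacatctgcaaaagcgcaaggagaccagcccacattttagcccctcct
PTGES: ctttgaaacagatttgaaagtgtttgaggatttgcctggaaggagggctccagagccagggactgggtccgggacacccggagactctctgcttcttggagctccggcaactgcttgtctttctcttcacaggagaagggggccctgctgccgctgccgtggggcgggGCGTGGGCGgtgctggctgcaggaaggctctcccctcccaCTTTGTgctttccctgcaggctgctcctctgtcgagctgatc

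The motifs were written with these sequences in view. They were TATAAA (the box that places the start of transcription), TTACGCAA (a C/EBP site), CGTCA (the core of a cyclic AMP response element), GCGTGGGCG (an EGR site), a 10-base NF-kappaB site with 2 free positions, whose match is the first run of capitals in PTGS2, and CNTTGT (a core of SOX sites). PTGS2 held 4 matches that do not overlap, the NF-kappaB letters beginning 224 bases before the start, the C/EBP letters 133 bases, the core of the cyclic AMP element 58 bases and the TATA box 32 bases before it. Of the 35116 promoters of the same length, 1.52% held the NF-kappaB letters, 0.148% the C/EBP letters, 21.2% that core and 10.7% the TATA box. PTGES held the EGR letters, found in 0.72% of promoters, 82 bases before its start, and the SOX core, found in 30.9%, 42 bases before it. Among the genes not printed, the PTGES2 promoter at chr9:128128145-128128394 also held the EGR letters and the SOX core. The other annotated promoters of PTGES2 held 0 matches. PTGES3 held the SOX core and the core of the cyclic AMP element, and PTGR1 held no match. PLA2G4A held none of the 6, and its stretch was 38.8% G and C against 50.4% for PTGS2, 61.2% for PTGES and a median of 58% over all promoters. A promoter was matched for 6 of the 7 genes, and PLA2G4C had none in the table.

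PLA2G4C, the calcium-independent, lipid-anchored member of the cytosolic phospholipase A2 group, differed most. It had 4 shRNA-Con tags and 70 in the shRNA-SOX2-labelled library. Per 1000000 gene tags this was 1.74 (0.473 to 4.44) against 33.4 (26.1 to 42.2), and the intervals do not meet. The ratio was 19.3 (7.2 to 72.6), a log2 ratio of 4.27 that ranked at position 2 from the top among the 10045 genes that had 20 or more tags when both libraries were summed. In such bulk RNA, fewer cells with the transcript and less transcript per cell cannot be told apart. The width of this interval comes from the 4 tags of the control library. The noncoding gene PLA2G4C-AS1 overlaps PLA2G4C, and whether the tags were assigned by strand is not given in the sources used here.

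PLA2G4A, the calcium-dependent enzyme that prefers phospholipids carrying arachidonic acid, had 114 shRNA-Con tags and 236 in the shRNA-SOX2-labelled library. That was 49.5 per 1000000 gene tags (40.8 to 59.4) against 113 (98.8 to 128), again without overlap of the intervals. Its ratio was 2.28 (1.81 to 2.87), with a log2 ratio of 1.19, at position 758 from the top. Both cytosolic phospholipases were thus higher in the shRNA-SOX2-labelled library, but not by the same factor. Of the tags on PLA2G4A and PLA2G4C together, PLA2G4C held 3.39% in shRNA-Con (0.931% to 8.45%, 4 of 118) and 22.9% in the shRNA-SOX2-labelled library (18.3% to 28%, 70 of 306). Such shares are taken within a library and do not depend on how the libraries are scaled.

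PTGS2, also known as COX-2, had 336 shRNA-Con tags and 135 in the shRNA-SOX2-labelled library. Per 1000000 gene tags these were 146 (131 to 162) and 64.5 (54.1 to 76.3). The ratio was 0.442 (0.359 to 0.541), so that shRNA-Con held 2.26 times as much, and the log2 ratio of -1.18 was at position 959 from the lowest of the 10045 genes. PTGS2 thus stood opposite to PLA2G4A, its neighbour on the chromosome. In shRNA-Con there were 2.95 PTGS2 tags for each PLA2G4A tag, and in the shRNA-SOX2-labelled library there were 0.572. PTGS2 made up 74.7% of the tags of this pair in the first (70.4% to 78.6%) and 36.4% in the second (31.5% to 41.5%).

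**Figure D1:**
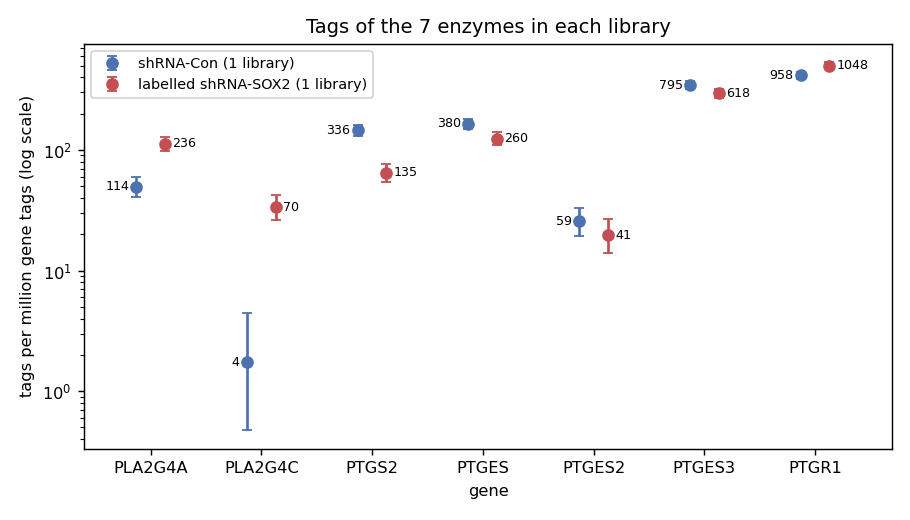
Tags per 1000000 gene tags (log axis) of the 7 enzymes in shRNA-Con and in the shRNA-SOX2-labelled library, 1 library each, with the tag count beside each point and 95% Clopper-Pearson intervals for counting error. PLA2G4C, PLA2G4A and PTGR1 were higher in the shRNA-SOX2-labelled library and PTGS2, PTGES and PTGES3 lower, with intervals that do not meet. Those of PTGES2 overlap. The genes were chosen with these values known, so the intervals are a description and not a test.

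PTGES, the inducible microsomal prostaglandin E synthase that is coupled to PTGS2, had 380 shRNA-Con tags and 260 in the shRNA-SOX2-labelled library. This was 165 per 1000000 gene tags (149 to 182) against 124 (110 to 140), a ratio of 0.753 (0.641 to 0.884) and a log2 ratio of -0.41. Its difference was in the same direction as that of PTGS2 and smaller. Among the tags of PTGS2 and PTGES together, PTGS2 held 46.9% in shRNA-Con (43.2% to 50.7%) and 34.2% in the shRNA-SOX2-labelled library (29.5% to 39.1%).

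The other two E synthases are expressed in most cells without induction. PTGES2, a membrane-associated enzyme, had 59 shRNA-Con tags and 41 in the shRNA-SOX2-labelled library. At this depth a difference was not detectable, since the ratio of 0.765 had an interval from 0.5 to 1.16. PTGES3, a cytosolic enzyme better known as p23, a co-chaperone of HSP90, had 795 and 618 tags, with a ratio of 0.855 (0.769 to 0.951) and a log2 ratio of -0.23. RefSeq names 5 pseudogenes of PTGES3, and how tags shared with such copies were counted is not given in the sources used here, so its count is uncertain. The proportions among the E synthases differed little. PTGES held 30.8% of their summed tags in shRNA-Con (28.2% to 33.5%) and 28.3% in the shRNA-SOX2-labelled library (25.4% to 31.3%), PTGES3 held 64.4% (61.7% to 67.1%) and 67.2% (64.1% to 70.3%), and these intervals overlap.

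PTGR1 reduces 15-oxo-prostaglandins and also reactive alkenals. It had 958 shRNA-Con tags and 1048 in the shRNA-SOX2-labelled library, or 416 (390 to 443) and 501 (471 to 532) per 1000000 gene tags. Its ratio was 1.2 (1.1 to 1.32) and its log2 ratio 0.27, the smallest difference among the 3 genes on the higher side.

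Differences as small as these depend on the zero point. Over the 10045 genes with at least 20 tags the median log2 ratio was -0.10 with gene tags, -0.03 with TMM factors or the median ratio, and -0.22 with clean tags, the total the authors' TPM rests on. Set against the median of -0.10, the log2 ratio of PTGES3 was -0.12, that of PTGES2 -0.28, that of PTGES -0.31 and that of PTGR1 0.37. None of the 7 genes changed direction under the 4 scalings.

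**Figure D2:**
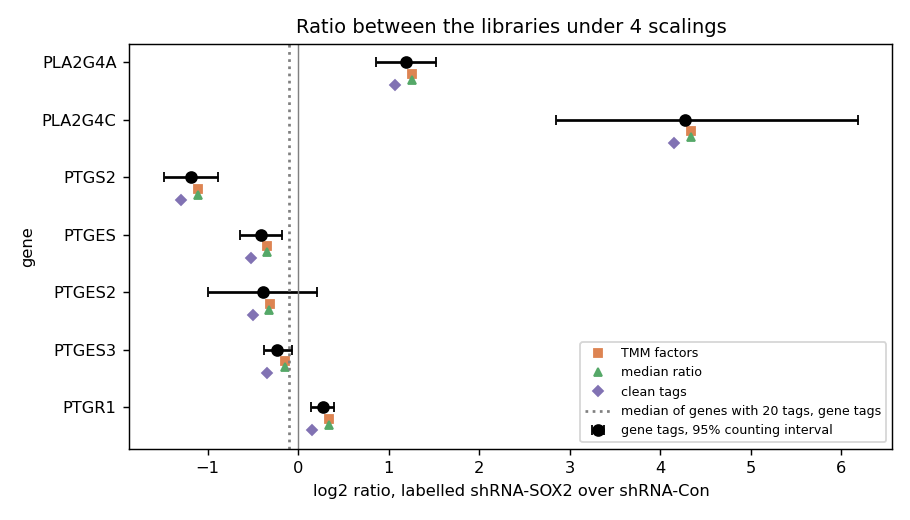
Log2 ratio of the shRNA-SOX2-labelled library over shRNA-Con for the 7 enzymes, with gene tags (black, 95% counting interval) and with 3 other scalings, and the median of genes with at least 20 tags as a dotted line. The points of PTGES3 lie closest to that line, and only the interval of PTGES2 spans 0.

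By size alone, 2 of the 7 genes, PLA2G4C and PLA2G4A, were at least 2-fold higher, where 10.4% of the genes with 20 or more tags were. PTGS2 alone was at least 2-fold lower, where 13.0% of those genes were. In all, 3 of the 7 had a ratio above 1, against 44.9% of those genes, and 4 had a ratio below 1, against 55.1%. The median log2 ratio of the 7 was -0.23. The members were picked with these values known, so nothing is read from the counts.

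The genes nearest to the outer members by log2 ratio, over these 2 libraries and with at least 100 tags, were CYP4F12 (10 and 136 tags, 3.90), SNAR-E (42 and 554 tags, 3.86) and IFI6 (10 and 125 tags, 3.78) for PLA2G4C. For PTGS2 they were YES1 (107 and 43 tags), GTF2H1 (291 and 117 tags) and ZC3H12A (276 and 111 tags), all with a log2 ratio of -1.18. The first number is that of shRNA-Con in each case.

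For the rest of the pathway, 10 lists of 125 genes were drawn up with earlier results of these data known. Of these genes, 88 could be counted and 37 were not analysed here. Fisher's exact test, two-sided, was applied to each gene, and the p-values were adjusted by Benjamini-Hochberg over the whole table of 13137 genes, at an FDR of 0.001. Such a test sets 1 library against the other, not 1 condition against the other, and takes the spread between cultures as 0. Below, a gene that rose or fell is one with a higher or lower share in the shRNA-SOX2-labelled library than in shRNA-Con. These words state no change over time and no effect of the hairpin. Of the 88 genes, 18 were called higher in the shRNA-SOX2-labelled library and 9 lower. Over the whole table, 9.53% were called higher and 12.2% lower (21.7% in all). Because of how the lists were chosen, nothing about the pathway is read from this difference. With TMM factors the list calls were 19 and 5, and with clean tags 14 and 10. Higher calls thus made up 66.7% of the list calls when scaled by gene tags, 79.2% by TMM factors and 58.3% by clean tags. Over all genes, higher calls made up 43.9%, 50.6% and 33.4% of the calls, in the same order. The median log2 ratio of the list genes with at least 20 tags was 0.12. Where edgeR's exact test was given an assumed coefficient of biological variation of 0.1 in place of 0, 12 of the 27 calls were made, and at 0.2 only those of PTGS1 and MGLL. The 12 were PTGS1, TBXAS1, AKR1C3, PLA2G15, MGLL, MBOAT7, ACSL3, SLCO2B1, HSPA8, DNAJB1, KHSRP and RBM3.

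PTGS1, the constitutive cyclooxygenase COX-1, had 0 shRNA-Con tags and 29 in the shRNA-SOX2-labelled library. Taking the 0 as up to 3 tags, or 1.3 per 1000000 gene tags, PTGS1 was at least 10.6-fold higher there with the 29 tags taken as they stand (adjusted p = 5.06e-09, Fisher's exact test). With the counting error of the 29 tags included, the 95% interval of the ratio begins at 8.11. With PTGS2 lower, the cyclooxygenases were differently composed in the libraries. PTGS1 held 0 of 336 cyclooxygenase tags in shRNA-Con, a share whose upper bound was 1.09%, and 29 of 164 (17.7%, 12.2% to 24.4%) in the shRNA-SOX2-labelled library. The summed cyclooxygenase tags nevertheless were fewer there.

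The other prostanoid synthases differed in both directions, with 3 of 7 genes of that list called higher, PTGS1 among them, and 2 lower. Over all genes, 9.53% were called higher and 12.2% lower. TBXAS1, the thromboxane synthase, rose from 43 tags to 99 (ratio 2.53, 1.75 to 3.71, adjusted p = 1.02e-06, Fisher's exact test). CBR3, a carbonyl reductase, rose from 12 to 38 (ratio 3.48, 1.78 to 7.33). AKR1C3, which makes prostaglandin F, fell from 3385 to 1492 (ratio 0.485, 0.456 to 0.516, adjusted p = 7.19e-127, Fisher's exact test), and AKR1B1, another reductase with that activity, from 4052 to 2647 (ratio 0.719, 0.684 to 0.755). With an assumed coefficient of 0.1 the call of CBR3 was lost (adjusted p = 0.00278, edgeR's exact test). That of AKR1B1 was lost as well (adjusted p = 0.082, edgeR's exact test). The AKR1C genes are near-identical to each other, so the split of their tags is uncertain.

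Among genes of breakdown and transport, 2 of 7 were called, both higher, where 9.53% of all genes were. HPGD, the dehydrogenase that begins the inactivation of prostaglandins, rose from 330 tags to 502 (ratio 1.67, 1.45 to 1.93, adjusted p = 3.53e-12, Fisher's exact test). With an assumed coefficient of 0.1 this call was lost (adjusted p = 0.00883, edgeR's exact test). In shRNA-Con PTGS2 and HPGD had nearly equal numbers of tags, so that PTGS2 held 50.5% of the pair (46.6% to 54.3%). In the shRNA-SOX2-labelled library it held 21.2% (18.1% to 24.6%). SLCO2B1, an organic anion transporter, had 2 tags and 21, a ratio of 11.6 as counted (2.82 to 102) and of 7.7 with the 2 tags set to the limit of 3.

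Of the 11 other genes of arachidonic acid release, 1 was called higher and 3 lower, against 9.53% called higher and 12.2% lower over all genes. So small a count shows no direction for the group. PLA2G15, the lysosomal phospholipase A2, rose from 5 tags to 32 (ratio 7.04, 2.72 to 23.2, adjusted p = 8.58e-06, Fisher's exact test). MGLL, the lipase that frees arachidonic acid from the endocannabinoid 2-arachidonoylglycerol, fell from 509 tags to 94 (ratio 0.203, 0.161 to 0.254, adjusted p = 1.24e-59, Fisher's exact test). The secreted PLA2G12A (47 and 15 tags) and the calcium-independent PNPLA8 (100 and 47 tags) were also called lower, but not with TMM factors or the median ratio. PLA2G6, the other well-known calcium-independent enzyme, had 16 and 11 tags and was not called, and PLA2G2A was not analysed here.

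Of the 12 genes that activate arachidonic acid or put it back into phospholipids, 2 were called higher and 1 lower. Over all genes, 9.53% were called higher and 12.2% lower. MBOAT7, which loads arachidonic acid onto phosphatidylinositol, rose from 464 tags to 812 (ratio 1.93, 1.72 to 2.16). LPCAT2 had 25 and 56 tags (ratio 2.47, 1.51 to 4.12), a call that was lost with clean tags. ACSL3, a long-chain acyl-CoA synthetase, fell from 268 to 108 (ratio 0.443, 0.351 to 0.556).

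Few tags fell on receptors. PTGER4, a receptor of prostaglandin E2, had 10 shRNA-Con tags and 5 in the shRNA-SOX2-labelled library, and PTGFRN, a regulator of the prostaglandin F receptor, had 29 in both. By Fisher's exact test 0 of the 4 receptor genes that could be counted was called, against 21.7% of all genes. Of the 4, 0 had an unadjusted p under 0.05, and edgeR's exact test with an assumed coefficient of 0.1 called 0. Only 1 of the 4 had 20 or more tags in both libraries together, which left little room for a call. PTGER1, PTGER2 and PTGER3 were not analysed here.

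The leukotriene branch had 1 of 11 genes called, against 21.7% of all genes. Only 5 of the 11 had 20 or more tags in both libraries together, and the rest had too few for a call. The called gene was MGST2, a glutathione transferase able to make leukotriene C4, which rose from 65 tags to 127 (ratio 2.15, 1.58 to 2.95). With an assumed coefficient of 0.1 the MGST2 call was lost (adjusted p = 0.00262, edgeR's exact test). ALOX5, the first enzyme of that branch, had 0 tags and 2, under the limit of 3. In the cytochrome P450 and epoxide hydrolase branch 1 of 5 genes was called, again against 21.7% of all genes. Only 2 of the 5 had 20 or more tags. The called gene of this branch was EPHX1, a microsomal epoxide hydrolase, which rose from 816 tags to 1155 (ratio 1.56, 1.42 to 1.71). This call too was lost with an assumed coefficient of 0.1 (adjusted p = 0.0179, edgeR's exact test).

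Of the 11 partners of PTGES3 in the HSP90 machinery, 6 were called higher and the other 5 were not called, while PTGES3 itself was on the lower side. Of all genes tested, 9.53% were called higher. With clean tags 4 of the 6 calls were made, and with an assumed coefficient of 0.1 edgeR's exact test made 2, those of HSPA8 and DNAJB1. The median log2 ratio of the list was 0.40. HSPA8 rose from 622 tags to 1095 (ratio 1.94, 1.75 to 2.14), DNAJB1 from 431 to 723 (ratio 1.85, 1.64 to 2.08), HSP90AA1 from 992 to 1191 (ratio 1.32, 1.21 to 1.44) and HSP90AB1 from 1647 to 1873 (ratio 1.25, 1.17 to 1.34). Copies of HSP90 and HSPA8 genes elsewhere in the genome make their single counts uncertain.

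The kinases that phosphorylate or activate cytosolic phospholipase A2 showed 0 calls among 9 genes, against 21.7% called over all genes. PRKCA, at 325 and 313 tags, had the most. Of the 9, 7 had 20 or more tags in both libraries together, and the rest had too few for a call. By the unadjusted Fisher's exact test 2 of the 9 had p under 0.05, and edgeR's exact test with an assumed coefficient of 0.1 called 0. Those 2, named after their values were seen, were MAPK9 (126 tags in shRNA-Con and 73 in the shRNA-SOX2-labelled library) and MAPK3 (43 and 22 tags). Of the 11 RNA-binding proteins of the list for PTGS2 mRNA, 2 were called higher and 3 lower, against 9.53% and 12.2% of all genes. KHSRP, which promotes decay of AU-rich mRNAs, rose from 159 tags to 339 (ratio 2.35, 1.94 to 2.85, adjusted p = 9.68e-19, Fisher's exact test), and AUH from 37 to 73 (ratio 2.17, 1.44 to 3.32), the latter not with clean tags. RBM3, a cold-inducible protein known to stabilise such mRNAs, fell from 539 to 181 (ratio 0.37, 0.311 to 0.438). The stabilising protein ELAVL1 (187 and 107 tags) and the decay factor ZFP36L1 (615 and 441 tags) were called lower with gene tags and with clean tags, but not with TMM factors or the median ratio.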

How the data were processed

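Digital gene expression tags were sequenced at the Beijing Genomics Institute for 1 library of each condition. The authors deposited the count of tags per gene in each library, and beside it TPM, which the authors computed per 1000000 clean tags. The deposited log2 ratios, p-values and FDR hold the authors' own comparison and were not used. The submitters' processing notes name hg19, and the aligner and annotation are not given in the sources used here.

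Counts were divided by all gene tags of a library. A count under 3 was set to 3 for log2 ratios, so that a gene with 0 tags has a bound. Shares and ratios have 95% Clopper-Pearson intervals (Python 3.11.15, scipy 1.17.1). Each gene of the lists was tested as one of all 13137 with Fisher's exact test, two-sided, p-values being adjusted by Benjamini-Hochberg, at an FDR of 0.001. The procedure was checked on simulated data with counting error only. That check holds no spread between cultures and so does not cover it. edgeR's quasi-likelihood test and DESeq2 cannot estimate a spread from 1 library a condition. Alternatives were TMM factors (edgeR 4.0.16), the median ratio (DESeq2 1.42.0, R 4.3.3), clean tags (3456234 in the library labelled shRNA-SOX2 and 3516266 in shRNA-Con, from count and TPM), edgeR's exact test with an assumed coefficient of biological variation, other minimum tag numbers, an FDR of 0.05, and 0.5 added to each count.

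The 7 members and the 10 lists were chosen with earlier results of these data known. Of each list, up to 4 called genes with the most tags were named in each direction, or the gene with the most tags where none was called. Genes close in role to a member were named whatever they showed. For the members with the highest and lowest log2 ratio, the 3 nearest genes by log2 ratio with at least 100 tags were named. Promoters are those of the RefSeq table for GRCh38.p14. Figures were drawn with matplotlib 3.10.9.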

Additional observations from a re-analysis of the deposited data

How the results depend on the processing

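The log2 ratios of the 7 enzymes stayed within their counting intervals and kept their direction under TMM factors, under the median ratio, with clean tags and with 0.5 added to each count. Of the list genes, 18 were called higher and 9 lower. With TMM factors and with the median ratio the lower calls were 5. With an assumed coefficient of biological variation of 0.1, edgeR's exact test called 8 higher and 4 lower, with 0.2 it called 1 and 1 (PTGS1 and MGLL), and with 0.4 it called 0 and 0, where 4 list genes had an unadjusted p under 0.05. Over all genes, 1252 were called higher and 1597 lower. These were 2148 and 2754 at an FDR of 0.05, 512 and 654 with a coefficient of 0.1, 65 and 48 with 0.2, and 0 and 0 with 0.4, where 627 genes had an unadjusted p under 0.05. By size alone, 2 of the 7 enzymes were at least 2-fold higher, and 1 was with a minimum of 100 tags, since PLA2G4C has 74. The list genes at least 2-fold higher were 11, and 5 with a minimum of 100 tags or 20 at 1.5-fold, and those lower were 6, and 11 at 1.5-fold. Over all genes these were 1040, 471 and 2060 higher, and 1306, 713 and 2667 lower.

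No paired analysis was possible because there is 1 library for shRNA-SOX2 and 1 for shRNA-Con, and no fit without a library was made. The spread between cultures was not measured, so a difference between the libraries cannot be told apart from one between any pair of cultures. Which column is shRNA-SOX2 rests on the abbreviations. With 4 tags in shRNA-Con, the ratio of PLA2G4C is known only within a wide interval, and at 59 and 41 tags a difference in PTGES2 was not detectable.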
